A study of Rattus norvegicus with 24 samples.

Results

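Of 24 rat soleus samples, the 8 arrays with the highest and the 8 with the lowest signal for Tnmd were compared across all other genes. Tnmd encodes tenomodulin, a membrane protein of mature tendon cells. The Tnmd value came from the authors' normalized log2 table, after the mean of the 8 arrays of the same slide was subtracted. The 16 arrays are called Tnmd-high and Tnmd-low here, and the 8 arrays ranked between them belong to neither set. Both sets were chosen by this measured Tnmd level and by no other value, so the differences between the sets are descriptions with no test.

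The soleus is a postural calf muscle made mostly of slow fibres. Each array holds total RNA of a mid-belly piece from 1 female rat of about 14 weeks, and each of 3 groups had 8 rats. Sedentary rats (SED) spent 8 weeks in ordinary cages, detrained rats (DETR) ran at will on a wheel for 4 weeks and then had none for 4 weeks, and trained rats (TR) had a wheel for 8 weeks. Before sampling, each rat, sedentary ones included, did 1 bout of forced wheel running (1 h, 20 m/min), and the piece was taken 24 h after it.

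Tendon is a dense matrix of parallel collagen fibres made by a small number of elongated cells. Small leucine-rich proteoglycans such as fibromodulin and keratocan bind those fibres and shape their thickness, and glycoproteins such as COMP link them to the rest of the matrix. Muscle fibres hand their force to this matrix at the myotendinous junction, and the soleus also carries a broad tendon sheet along its surface.

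The 8 Tnmd-high arrays were TR5 at 3.47, SED6 at 2.10, DETR5 at 2.01, SED7 at 2.00, SED2 at 1.85, SED4 at 1.45, TR1 at 1.41 and SED3 at 1.18, in log2 units above the slide mean. The 8 Tnmd-low arrays were DETR8 at -0.64, TR6 at -0.86, DETR1 at -1.54, TR4 at -2.20, TR8 at -2.40, SED8 at -2.43, DETR6 at -2.55 and TR2 at -3.90. The nearest arrays outside the sets were DETR2 at 0.98 and DETR4 at -0.61. DETR4 and DETR8, on either side of the lower limit, were thus nearly equal.

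**Figure D1:**
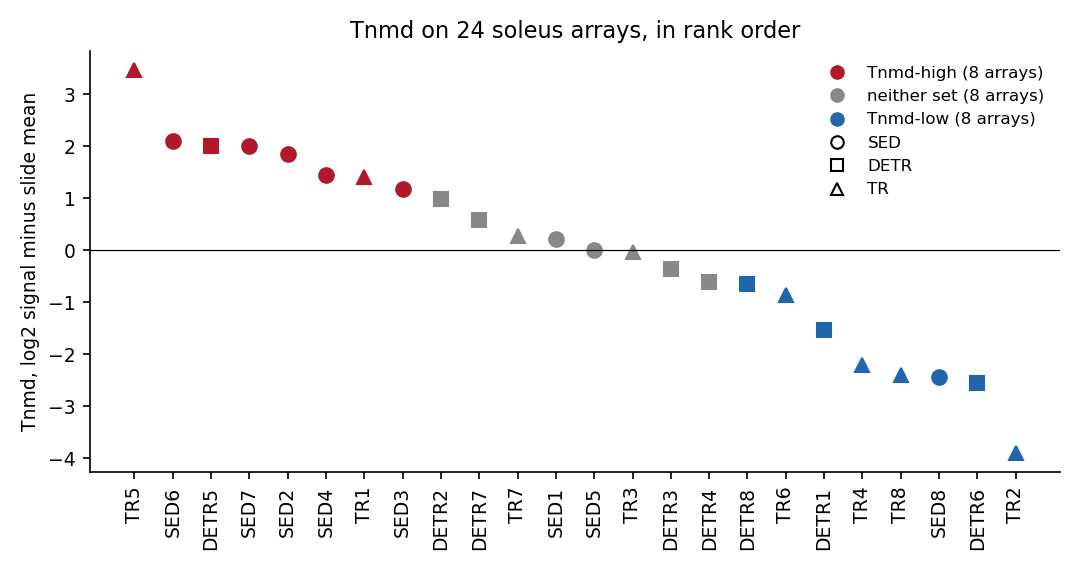
Tnmd on each of the 24 arrays in rank order, as log2 signal of the normalized table minus the slide mean; colour gives the set and shape the training group. The values run from 3.47 on TR5 to -3.90 on TR2, with no gap at the lower limit between DETR4 at -0.61 and DETR8 at -0.64.

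The Tnmd probe was well above background, the scanner software's own call, on 17 of the 24 arrays. All 8 Tnmd-high arrays had such a signal, and among the Tnmd-low arrays it was present on DETR1 and TR4. The order within the Tnmd-low set was therefore measured less firmly than that of the Tnmd-high set: TR8 stood at -2.40 in the normalized table and at -0.87 in the scanner values. The scanner values nevertheless chose the same 8 and the same 8 arrays.

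The sets were uneven in training group and slide. The Tnmd-high set held 5 SED, 1 DETR and 2 TR arrays and the Tnmd-low set 1 SED, 3 DETR and 4 TR arrays. The Tnmd-high arrays came 2, 4 and 2 from slides 1, 2 and 3 and the Tnmd-low arrays 2, 2 and 4. The 75th percentile of signal ran from 133.2 to 1410.4 (median 1166.75) in the Tnmd-high set and from 124.5 to 1437.6 (median 434.4) in the Tnmd-low set. TR2 had a median coefficient of variation of 21.8% between spots of the same probe, against 3.98% to 8.73% on the other 15 arrays of the sets, so values without TR2 stand beside those it moves. The part of slide, group and signal strength in the differences was not tested.

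Across 20326 features, each being 1 gene or 1 unnamed probe, 18 were higher on every Tnmd-high than on every Tnmd-low array (0.0886%), and 3 were lower on every one (0.0148%). A difference of at least 2-fold upward was seen in 86 features (0.423%) and downward in 12 (0.059%). These counts moved with the processing: 33 were 2-fold higher under normexp background correction, 912 were 2-fold lower with no slide mean subtracted, and without slide 3 the counts were 256 and 73. The 3 lower without overlap became 84 with 6 against 6 arrays and 255 without slide 3, more than the 42 and 91 higher. The median difference over all features was -0.04 on the log2 scale, and 38.8% lay above 0. Of the 86 features, 69 had their lowest value of the 16 arrays on TR2, and 24 kept a 2-fold difference when TR2 was left out. The 18 were named genes, and matrix genes led them. The count of 18 was 10 under normexp, 3 with 12 against 12 arrays and 8 over features well above background on all 24 arrays.

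The largest differences were in small leucine-rich proteoglycans. Keratocan (Kera), a member of this family found in cornea and tendon, stood at 1.14 to 3.32 (median 1.82) above the slide mean on the Tnmd-high arrays and at -3.98 to -0.25 (median -1.73) on the Tnmd-low arrays. The difference of means was 3.76, with means of 2.02 ± 0.77 and -1.74 ± 1.26 (SD, n = 8 each). Kera was well above background on all 8 Tnmd-high and on 2 Tnmd-low arrays, so the size rests on faint signal at the low end. Under normexp background correction the difference was 1.42. That correction also adds an offset of 50 to the signal, which by itself makes log2 differences of faint spots smaller.

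Fibromodulin (Fmod), which governs how collagen fibrils thicken, stood at 0.76 to 3.11 (median 1.94) in the Tnmd-high set and at -2.68 to -0.64 (median -1.59) in the Tnmd-low set. The 2 sets of values did not overlap, and Fmod was well above background on all 16 arrays. It differed by 3.51, or 11.4-fold. Chondroadherin (Chad), a cartilage and tendon protein that binds collagen and integrin, ran from 0.38 to 2.85 (median 1.64) and from -2.08 to -0.53 (median -0.92), a difference of 2.69. These 3 proteoglycans stood apart from their family in size: the other 9 measured of 12 lay between -0.25 and 0.31, among them decorin (Dcn, 0.17), biglycan (Bgn, 0.06) and lumican (Lum, -0.14). The list's median was 0.10, or 0.49 with no slide mean subtracted, and 9 of its 12 measured members were above 0.

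The sequence just before the start of these genes is shown because the genes were chosen for, or differed with, the same arrays. RefSeq (build GRCr8) gives the 250 bases before the start, all on the plus strand: chrX:101350182-101350431 for Tnmd, chr7:34283850-34284099 for Kera, chr13:48045317-48045566 for Fmod and chr10:80008795-80009044 for Chad. Capitals mark matches to CANNTG, the E-box that scleraxis and other basic helix-loop-helix factors bind, and to TATAAA, both searched on both strands; no match overlapped another.
Tnmd: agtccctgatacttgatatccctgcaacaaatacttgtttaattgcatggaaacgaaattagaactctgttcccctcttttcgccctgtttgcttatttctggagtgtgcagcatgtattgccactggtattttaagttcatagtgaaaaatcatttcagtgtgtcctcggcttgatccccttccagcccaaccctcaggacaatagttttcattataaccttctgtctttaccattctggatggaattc
Kera: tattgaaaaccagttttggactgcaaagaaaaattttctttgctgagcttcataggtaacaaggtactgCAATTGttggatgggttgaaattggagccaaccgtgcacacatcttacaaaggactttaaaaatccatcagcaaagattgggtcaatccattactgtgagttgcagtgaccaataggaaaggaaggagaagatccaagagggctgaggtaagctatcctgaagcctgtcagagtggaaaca
Fmod: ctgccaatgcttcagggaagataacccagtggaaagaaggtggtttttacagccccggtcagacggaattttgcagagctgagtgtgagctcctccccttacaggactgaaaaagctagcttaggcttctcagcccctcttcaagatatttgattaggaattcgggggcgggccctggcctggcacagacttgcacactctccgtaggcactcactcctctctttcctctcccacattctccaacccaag
Chad: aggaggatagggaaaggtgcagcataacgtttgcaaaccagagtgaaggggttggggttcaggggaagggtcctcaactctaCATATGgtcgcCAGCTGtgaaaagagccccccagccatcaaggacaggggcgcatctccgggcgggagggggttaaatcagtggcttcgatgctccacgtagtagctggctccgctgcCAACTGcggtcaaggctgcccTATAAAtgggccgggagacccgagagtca

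The Chad window holds 3 E-box matches and 1 TATAAA, the Kera window 1 E-box match, and the Tnmd and Fmod windows none of either. Of Tnmd and the 18 genes, 15 had such a window, and 9 of these 15 genes hold an E-box match in at least 1 window. Among 33469 single windows of the same length, 65.5% hold one. TATAAA is found for 5 of the 15 genes and in 12.9% of all windows. Genes with several windows have more room for a match, so the gene counts and the window shares are not directly comparable. A match is a run of letters and was not tested as a site.

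Cartilage oligomeric matrix protein (Comp), which spaces collagen fibrils, stood at 0.19 to 2.06 (median 1.49) on the Tnmd-high arrays and at -1.48 to -0.63 (median -0.92) on the Tnmd-low arrays. The Tnmd-low values were tight, with an SD of 0.27 against 0.71 in the Tnmd-high set, and the difference was 2.24, or 1.59 under normexp. Comp, Kera and Fmod had been named as markers of the tendon-rich samples, so their agreement with Tnmd was known when the sets were formed. Thrombospondin 4 (Thbs4), a COMP relative of tendon and the myotendinous junction, differed by 1.52 and by 1.14 without TR2; 1 set's range reached into the other's (0.14 to 1.24 against -3.45 to 0.21).

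The tendon list held 17 measured members besides Tnmd, of which 14 were above 0 (82.4%), 6 differed at least 2-fold upward (0.423% of all features) and 5 did not overlap between sets (0.0886% of all). Kera, Comp and Fmod, the markers named beforehand, are among both. The median of the 17 members was 0.52, against -0.04 over all features. Cilp2, a cartilage intermediate layer protein, differed by 1.22 and Clec11a, a secreted growth factor of bone and marrow, by 0.95, both with overlap and on partly faint signal (well above background on 3 and 2 Tnmd-low arrays). The transcription factors that set the tendon fate moved little: scleraxis (Scx) differed by 0.15 and Mohawk (Mkx) by 0.05, with both sets on either side of the slide mean. Prg4, the lubricant lubricin, differed by 0.14 and Cilp by -0.29. The list's median was 0.16 under normexp background correction and 0.15 over features well above background on all 24 arrays.

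**Figure D2:**
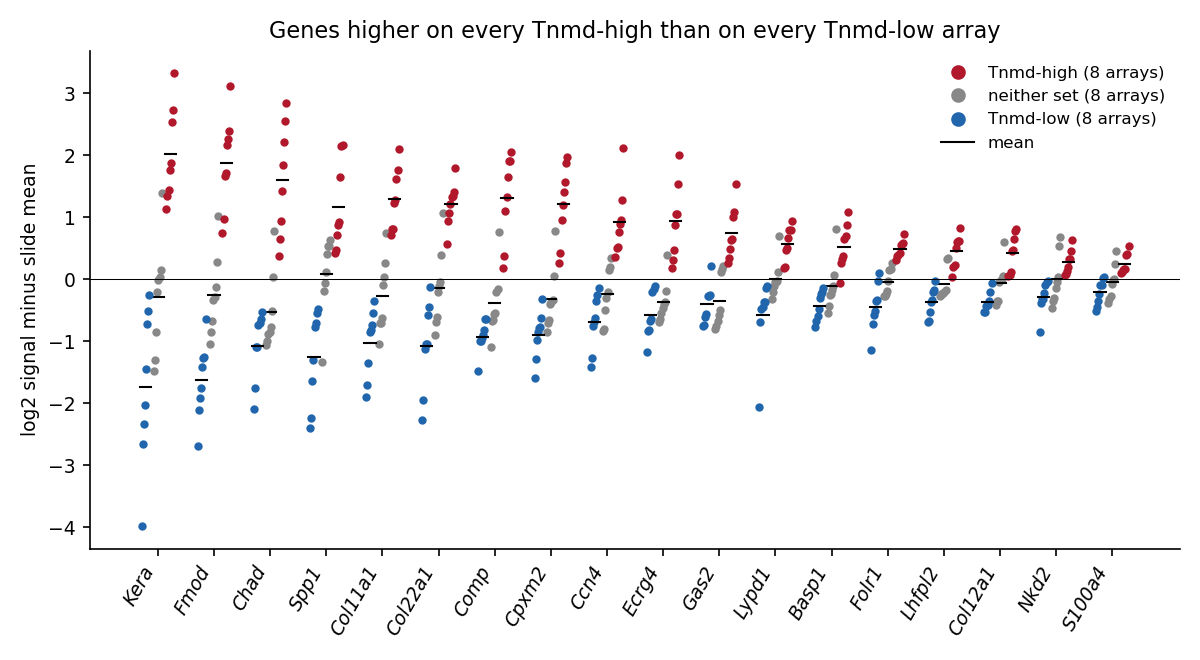
The 18 genes that were higher on all 8 Tnmd-high than on all 8 Tnmd-low arrays, ordered by the difference of means; each point is 1 array, as log2 signal minus the slide mean, and black lines are means. Kera has the widest span, from -3.98 to 3.32, and many arrays of neither set lie within the range of the Tnmd-low set.

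Collagen genes separated by chain. Col22a1, a collagen of the myotendinous junction, stood at 0.56 to 1.80 (median 1.28) on the Tnmd-high and at -2.28 to -0.13 (median -1.04) on the Tnmd-low arrays, a difference of 2.28. Col11a1, a fibril-nucleating chain of cartilage and developing tendon, ran from 0.71 to 2.11 and from -1.90 to -0.35, a difference of 2.32 shared in sign by both of its probes. It was well above background on 4 of 8 Tnmd-low arrays, and under normexp Col11a1 and Col22a1 differed by 1.00 and 1.27. Col12a1, which decorates collagen I fibrils, differed by 0.79 with no overlap.

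Col1a1 and Col1a2, the 2 chains of collagen I and the bulk of tendon, differed by 1.94 and 0.72 with overlap. On TR2, Col1a1 was at -4.13, and without that array its difference was 1.48, while that of Col1a2 was 0.77. Other chains did not follow: Col3a1 differed by -0.17, Col5a1 by -0.31 and Col6a1 by -0.03. In the collagen list 12 of 29 measured chains were above 0 (41.4%) with a median of -0.03, close to all features. Of the enzymes that process collagen, 16 of 24 were above 0 (median 0.07), led by the cross-linking lysyl oxidase Lox (0.59) and its relatives Loxl2 (0.35) and Loxl3 (0.34), none of them free of overlap.

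Other matrix proteins gave a few large values in lists that did not shift. Osteopontin (Spp1), a phosphorylated protein of bone and remodelling tissue, stood at 0.42 to 2.18 (median 0.90) and at -2.40 to -0.48 (median -1.03), a difference of 2.43. It was well above background on 8 Tnmd-high and 2 Tnmd-low arrays, and its difference was 0.89 under normexp. The defining bone genes Bglap, Ibsp and Dmp1 did not pass the filter, and of 6 measured bone genes Spp1 alone did not overlap. Ltbp2, an elastic fibre protein, differed by 1.32, and periostin (Postn), which promotes collagen cross-linking, by 0.87, both with overlap. The matrix glycoprotein list had 17 of 36 members above 0 and a median of -0.02, or 0.13 with no slide mean subtracted. In the fibrocartilage list, Col11a1 was the exception among 12 measured members with a median of 0.00: Sox9, the regulator of cartilage fate, differed by -0.01 and Col2a1 by 0.39.

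The remaining genes of the 18 were of several kinds. Ccn4, a secreted WNT target of the CCN family, stood at 0.37 to 2.12 (median 0.83) and at -1.42 to -0.15 (median -0.66), a difference of 1.62. Cpxm2, a carboxypeptidase relative, differed by 2.11, and Ecrg4, a secreted peptide precursor, by 1.51. Gas2, Lypd1, Basp1 and Folr1 differed by 1.16, 1.15, 0.95 and 0.94. Nkd2, an inhibitor of WNT signalling, and S100a4, a calcium-binding protein of fibroblasts, differed by 0.56 and 0.46. Lhfpl2 differed by 0.82 through 1 of its 2 probes, and the other probe had the opposite sign. Under normexp, Ccn4 differed by 0.56, Gas2 by 0.47, Lypd1 by 0.64, Folr1 by 0.57, Lhfpl2 by 0.28 and Nkd2 by 0.22.

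The choice of genes without overlap fixes the sign of each of the 18 within every slide and training group, so the sizes there are given as a description and are no check on slide or group. For Kera the difference was 4.00, 4.77 and 3.60 on slides 1, 2 and 3, and 3.20, 3.95 and 4.55 within SED, DETR and TR. For Fmod it was 3.58, 3.75 and 3.96 by slide and 3.00, 3.54 and 4.04 by group. Each within-group value rests on few arrays, with 1 SED array in the Tnmd-low set and 1 DETR array in the Tnmd-high set. Without TR2 the 18 differences ranged from 0.44 for S100a4 to 3.44 for Kera.

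At the junction of muscle and tendon, 3 of 16 list members were at least 2-fold higher, against 0.423% of all features. The others lay between -0.35 and 0.36, and the list median was -0.01. Besides Col22a1 and Thbs4, the 3 included Ankrd1, a stretch-responsive protein of the sarcomere. Ankrd1 stood at -0.05 to 2.47 (median 0.74) and at -3.21 to 1.36 (median -1.27). Its sets overlapped, and its difference was 2.04, or 1.74 without TR2. Integrin alpha 7 (Itga7), the main laminin receptor there, differed by 0.09 and talin 2 (Tln2) by -0.11.

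Markers of the muscle fibres differed little in their list medians, at -0.11 for 16 slow fibre genes and -0.15 for 17 fast fibre genes. The slow myosin Myh7 differed by -0.02. The fast fibre list varied far more between arrays than between sets: its mean per array ran from -2.02 to 1.37 in the Tnmd-high and from -0.99 to 0.88 in the Tnmd-low set. Myh1, a fast myosin heavy chain, differed by -0.78 with an SD of 3.24 and 2.31, and by 1.59 on slide 2 against -2.49 on slide 1. Several slow fibre and metabolic genes had a difference that shrank without 1 array: Csrp3 was 0.75 higher, or 0.25 without TR2, Tnnc1 0.69 or 0.15, Acadl 0.80 or 0.22, and the ribosomal protein genes Rpl19 0.76 or 0.19 and Rps3 0.74 or 0.16. The respiratory chain list had 5 of 33 members above 0 with a median of -0.06, and the ribosomal list a median of -0.03; with no slide mean subtracted these medians were 0.08 and 0.15.

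**Figure D3:**
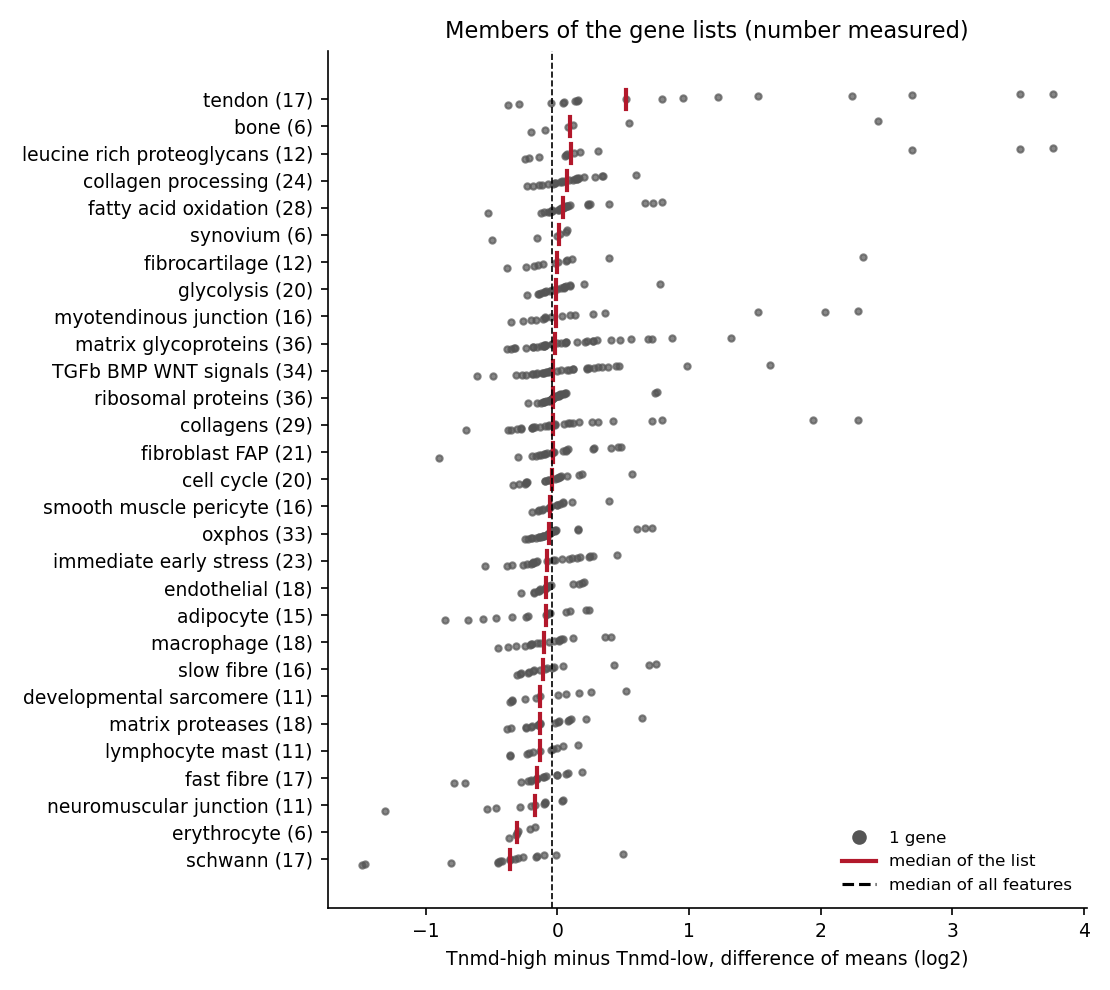
Difference of means between Tnmd-high and Tnmd-low arrays (log2) for every measured member of 29 gene lists; each point is 1 gene, the red bar the list's median and the dashed line the median of all features at -0.04. The tendon list has the highest median, 0.52, and the Schwann cell list the lowest, -0.36.

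Schwann cell genes and, less evenly, neuromuscular junction genes lay on the other side. Of 17 measured Schwann cell genes, which wrap axons in myelin, 16 were lower on average in the Tnmd-high set, and the median was -0.36, against -0.04 for all features. Myelin basic protein (Mbp), which compacts the myelin sheath, stood at -2.06 to 0.41 (median -0.98) on the Tnmd-high and at -0.53 to 1.40 (median 0.70) on the Tnmd-low arrays. It differed by -1.46, with overlap. Within the DETR and TR arrays Mbp differed by -1.91 and -2.76, and within the SED arrays by 0.22. Chrne, a subunit of the muscle fibre's acetylcholine receptor at adult endplates, differed by -1.31. Of 11 neuromuscular junction genes 9 were lower, with a median of -0.17, or -0.12 without TR2. By slide this median was -0.26, -0.37 and 0.03 on slides 1, 2 and 3. Chrne likewise differed by 0.07 within SED and by -3.51 within TR.

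The lists of other cell types had medians nearer than the Schwann cell list to that of all features, -0.04, where 12433 of 20326 features were lower. The 6 measured erythrocyte genes were all lower, with a median of -0.30, and Hbb, a haemoglobin chain, differed by -0.30. Of 15 adipocyte genes 11 were lower (median -0.09), with Pck1 at -0.86 and Adipoq at -0.24. Endothelial, smooth muscle, macrophage and lymphocyte or mast cell lists had medians of -0.09, -0.05, -0.10 and -0.13. Of general fibroblast markers, 9 of 21 were above 0 with a median of -0.03 (0.19 with no slide mean subtracted), Pdgfra, the receptor that marks interstitial fibroblasts, differed by -0.02, and Apod by -0.90. In RNA from a whole piece, fewer cells of a type and less RNA per cell cannot be told apart.

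The 3 features that were lower on every Tnmd-high array were Gmcl1l, Cmtm5 and Hcls1. Gmcl1l differed by -1.07, with 1 array, TR2, at 2.86 and the next Tnmd-low array at 0.72, and by -0.74 without TR2. Cmtm5, a membrane protein of the chemokine-like family, differed by -0.60, and Hcls1, an actin regulator of blood cells, by -0.34.

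The 8 arrays of neither set did not enter the choice of the 18 genes without overlap, although Kera, Comp and Fmod had been named as markers with results of all arrays known. Each gene's slope on Tnmd was fitted there with limma and slide as a term, with 4 residual degrees of freedom. Of 20326 slopes 0 passed at an adjusted p of 0.05 (0%), and 136 (0.669%) had an unadjusted p under 0.05. Of the 18 genes, 17 had a slope above 0, against 57.8% of all features. Ordered by p, Kera ranked 1 with a slope of 1.75 ± 0.21 (SE), Col11a1 ranked 2 with 1.02 ± 0.14 and Comp ranked 3 with 0.98 ± 0.18, in log2 units per log2 unit of Tnmd, each with a limma adjusted p of 1.

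DETR2 had the highest value among these 8 arrays for Tnmd (1.07), Kera (1.40), Comp (0.77), Fmod (1.03) and Col11a1 (0.76). DETR4 had the lowest value for Tnmd (-0.69), Kera (-1.48), Comp (-1.09), Fmod (-1.04) and Col11a1 (-1.04). Without DETR2 the slope of Kera was 2.15 ± 0.50 and that of Comp 0.57 ± 0.41, their ranks were 47 and 1564, and 12 of the 18 genes had a slope above 0, against 49.1% of all features. The order of the genes in these arrays thus rested on DETR2. Without DETR4, 13 of the 18 had a slope above 0 and Kera ranked 3 with 1.83 ± 0.31.

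**Figure D4:**
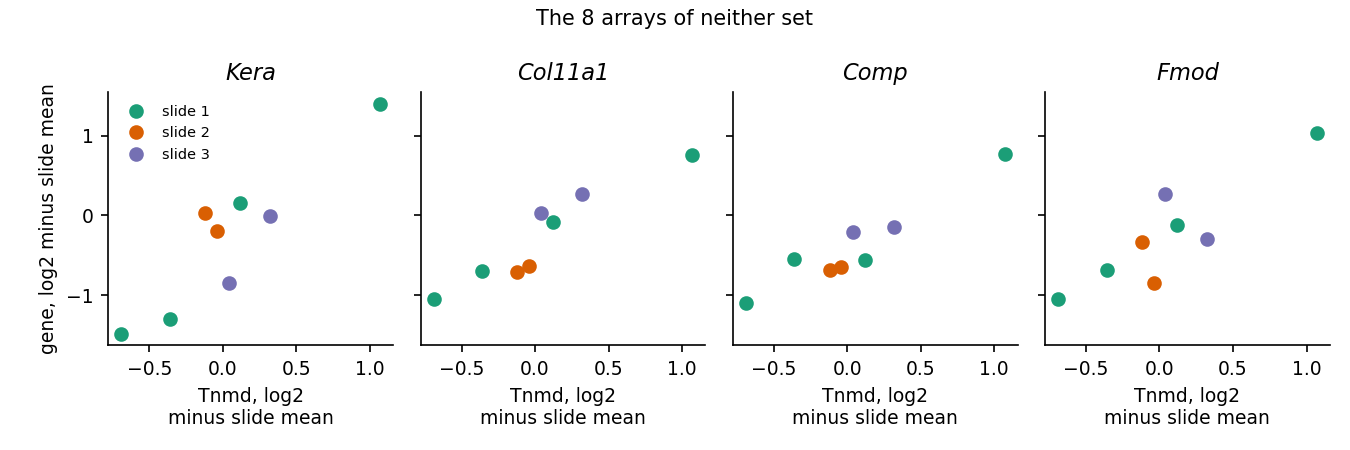
Kera, Col11a1, Comp and Fmod against Tnmd on the 8 arrays of neither set, as log2 signal minus the slide mean, coloured by slide. DETR2, at a Tnmd value of 1.07, is the highest point in each panel, and 4 of the 8 arrays come from slide 1.

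The training groups were then compared for Tnmd itself, since the rule did not use the group labels. After the slide mean was subtracted, Tnmd averaged 0.83 ± 1.32 in SED, -0.33 ± 1.47 in DETR and -0.50 ± 2.12 in TR (SD, n = 8 each) in the scanner values. Slide 1 held no TR array and slide 2 no DETR array. The slide means thus differ in group make-up, and these averages are no direct comparison of the groups. The ranges overlapped almost fully, from -1.79 to 2.15, -2.68 to 2.11 and -3.83 to 2.90. Group labels were permuted within the slides that hold both groups, so only the arrays of those slides entered. TR minus SED (8 and 6 arrays) was -1.34 with an exact two-sided p = 0.229 over 1050 arrangements. DETR minus SED (8 and 4 arrays) was -0.89 with an exact p = 0.393 over 168. TR minus DETR (4 and 2 arrays of 1 slide) was 0.53 with an exact p = 0.8 over 15. Adjusted over the 3 comparisons, the exact p values were 0.589, 0.589 and 0.8. TR minus DETR could not go below an exact p of 0.0667, so it could not pass.

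The 18 genes were also read in the study's own comparisons, fitted in limma over all 24 arrays with slide as a term. No feature passed an adjusted p of 0.05 in any of them (0%), while 801 (3.94%) in DETR minus SED, 2119 (10.4%) in TR minus SED and 2016 (9.92%) in TR minus DETR had an unadjusted p under 0.05. With array weights 15, 107 and 2 features passed, and in TR minus SED 1 passed in the authors' table and 2 under normexp. With the replicate number as a block, 4 passed in TR minus SED and 35 in TR minus DETR. In TR minus SED all 18 genes had values below 0, with a median of -0.71 against 0.01 for all features, and a smallest limma adjusted p of 0.431. In DETR minus SED 15 of 18 were below 0 (median -0.47), and in TR minus DETR 15 of 18 (median -0.23). The comparisons share arrays. The set sizes above show that SED arrays were the more frequent in the Tnmd-high set and TR arrays in the Tnmd-low set. The 18 genes were chosen on arrays that also entered these fits, so values below 0 against SED are favoured by that choice. Tnmd itself differed by -1.34 in TR minus SED. The genes were all chosen for following Tnmd, so their shared sign is not 18 separate results. It cannot show whether training had an effect.

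The 18 genes were chosen for following Tnmd on 16 of these 24 arrays, so a smaller group difference and a smaller SE with Tnmd as a term are favoured by that choice and support nothing. With Tnmd as a further term in the model, no feature passed either, and 889 (4.37%), 2011 (9.89%) and 2052 (10.1%) had an unadjusted p under 0.05. Under alternatives with this term, array weights gave 11 features in TR minus SED and 3 in TR minus DETR. The authors' table gave 1 in TR minus SED, and the replicate block 38 in TR minus DETR. The 18 genes' median in TR minus SED was then -0.16 with 13 below 0, and in DETR minus SED 0.11 with 5 below 0. In TR minus DETR it was -0.22 with 15 below 0. Kera differed by -1.41 ± 0.92 (SE) in TR minus SED without the term and by -0.01 ± 0.26 with it.

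No value of the 18 passed the threshold at equal Tnmd. Col22a1 in TR minus SED was -1.27 ± 0.53 without and -0.52 ± 0.26 with Tnmd (limma adjusted p = 0.513). Col1a1, which is not among the 18, was -1.39 ± 0.58 and then -0.68 ± 0.38 (limma adjusted p = 0.569). Ccn4 changed sign, from -0.19 ± 0.45 to 0.40 ± 0.26.

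**Figure D5:**
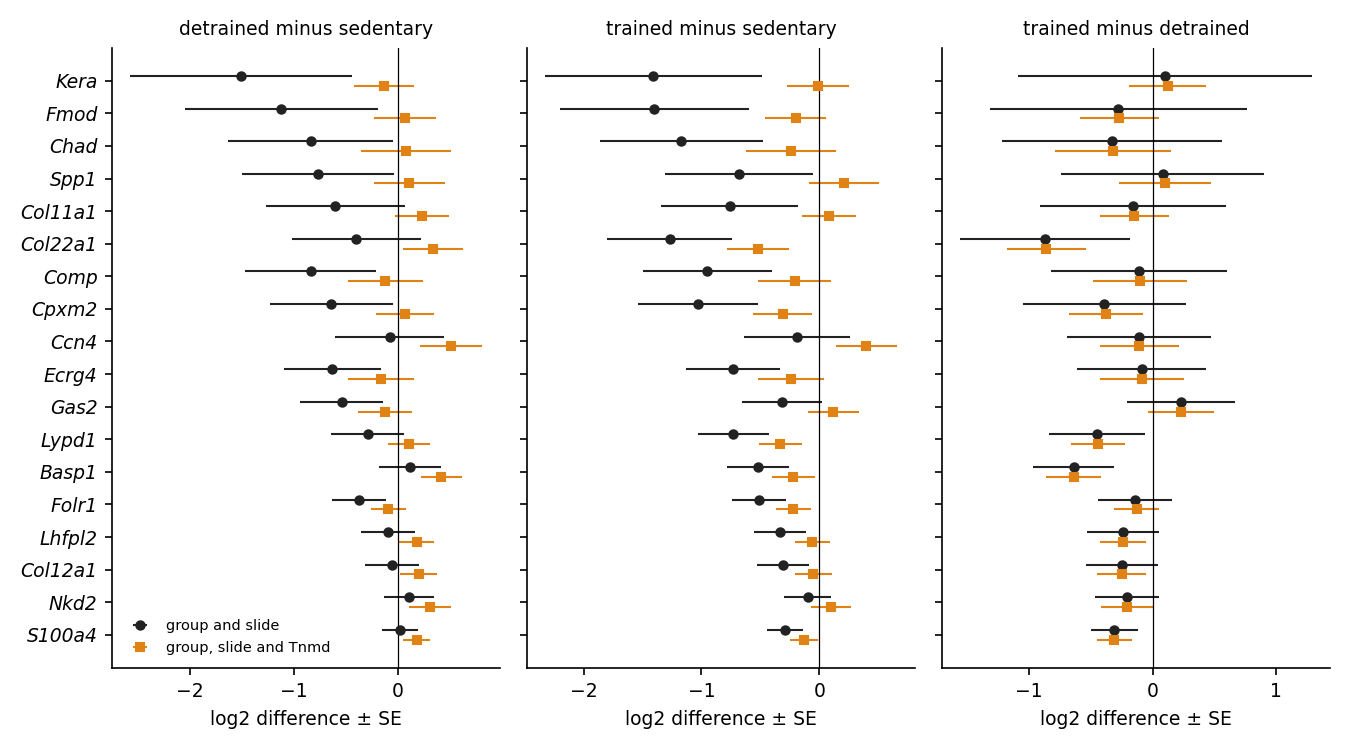
Log2 difference ± SE of the 18 genes in the 3 group comparisons, fitted with group and slide (black circles) or with Tnmd added (orange squares). In TR minus SED the median is -0.71 without and -0.16 with Tnmd, a move that the choice of genes by Tnmd favours.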

How the data were processed

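Each rat's total RNA went on 1 one-colour Agilent array after Cy3 labelling, per the labels. Spot intensity values in the deposited scanner files are background-subtracted output of Agilent Feature Extraction (version 11.5.11.1 per the submitters' processing notes, 11.5.1.1 per the file headers). A further deposited table holds log2 values whose columns share 1 distribution, and its software was not named in the sources used. The table chose the arrays. All other values came from the processed signal on a log2 scale minus each array's 75th percentile, without 4259 control spots per array and without spots marked as outliers. Spots of 1 probe were averaged, genes took their brightest probe, and features needed a well-above-background call on 8 of 24 arrays. Of 30367 probes, 19459 were named through RefSeq accessions, 4864 kept the files' name and 6044 had none. Slide means were subtracted (3 slides of 8). Of 2778 genes with several probes, 1214 had probes of opposite sign. No 2 arrays were identical (highest correlation 0.993). The number of arrays limits the precision. Each array is 1 piece of 1 rat, so the spread behind the limma p-values joins rat, sampling and measurement. The exact p-values rank arrangements of group labels within slides.

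limma 3.58.1 (R 4.3.3) with Benjamini-Hochberg adjustment fitted all features, and exact permutations tested Tnmd by group. The scripts were tested on simulated data. The sample sets, the 29 gene lists (608 members) and the rules were chosen with earlier results of these data known. Named genes were Tnmd, Kera, Comp and Fmod, the genes without overlap between sets, up to 4 members of each list with the largest difference, and the 5 genes with the smallest p in each fit; other list members were named after their values were seen, and a few genes that this rule selects are left out. The normexp correction used median spot signals and added an offset of 50, which makes log2 differences of faint spots smaller. The share of this offset in the changes under normexp was not tested. Alternatives were other normalizations, filters, set sizes and choices of arrays, no slide mean, no slide 3, array weights, the replicate block and each array left out; leaving out arrays of neither set was added after the data were seen.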

Additional observations from a re-analysis of the deposited data

Results flagged for a closer look

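Of 60 sets of 8 values examined, 8 had 1 array farther from its neighbours than Dixon's 95% limit for 8 values allows. The sets of values share arrays, and genes chosen for lack of overlap are among them. The count can therefore not be set against a rate given by chance. TR2 gave 4 of them, all in the Tnmd-low set: Lypd1 at -2.05 (nearest array -0.68), Gmcl1l at 2.86 (0.72), Cmtm5 at 0.96 (0.35), and a spot-to-spot coefficient of variation of 21.8% (7.96%). In the same set Comp on TR4 was -1.48 (nearest -0.99) and Nkd2 on SED8 was -0.85 (-0.38). In the Tnmd-high set, TR5 had 50.3% of probes well above background (nearest 67.62%). Within the TR group, Comp on TR5 was 2.06 (nearest 0.19).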

How the results depend on the processing

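The Tnmd-high minus Tnmd-low values of Kera, Fmod and Comp kept their direction under all alternatives run but not their size: Kera was 1.42 and Comp 1.59 under normexp, and Fmod 2.66 with 12 against 12 arrays. Of the other genes without overlap, Spp1, Col11a1, Col22a1, Ccn4, Gas2, Lypd1, Folr1, Lhfpl2 and Nkd2 also moved under normexp, to 0.89, 1.00, 1.27, 0.56, 0.47, 0.64, 0.57, 0.28 and 0.22, and Gas2, Basp1, Lhfpl2, S100a4 and Hcls1 with no slide mean, to 1.56, 1.35, 1.21, 0.71 and -1.02. Of the 18 genes higher without overlap, 16 were among the 20 found under quantile normalization and under the authors' table, and 12 among the 14 found with no slide mean subtracted. Counts of features higher without overlap that moved by over 1.5 times were 10 under normexp, 42 with 6 against 6 arrays, 3 with 12 against 12, 8 with the filter on all 24 arrays and 91 without slide 3, where the sets keep 6 and 4 arrays; leaving out 1 array gave 18 to 22. Counts lower without overlap were 9 (quantile), 10 (authors' table), 12 (no slide mean), 84 (6 against 6), 0 (12 against 12), 1 (group subtracted) and 255 (no slide 3), and 3 to 13 leaving out 1 array. At least 2-fold higher were 33 (normexp), 16 (12 against 12), 37 (Tnmd with training group subtracted), 23 (filter on all 24 arrays) and 256 (no slide 3), and 27, without TR2, to 119 leaving out 1 array. At least 2-fold lower were 2 (normexp), 912 (no slide mean), 52 (6 against 6), 4 (12 against 12), 20 (group subtracted), 29 (no filter), 3 (filter on all 24 arrays) and 73 (no slide 3), and 11 to 22 leaving out 1 array. Fewer arrays per set make overlap rarer by construction; other causes were not tested.

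Gene list medians that changed sign were those of developmental sarcomere genes (0.02 under quantile normalization, 0.03 with training group subtracted), fast fibre genes (0.20 with 6 against 6 arrays) and matrix proteases (0.01 with the filter on all 24 arrays). The tendon median was 0.16 under normexp and 0.15 with the filter on all 24 arrays. Matrix proteases stood at -0.01 in the authors' table. With no slide mean subtracted the medians were -0.35 for fibrocartilage, 0.49 for leucine-rich proteoglycans, 0.13 for matrix glycoproteins, 0.19 for fibroblasts, -0.36 for lymphocytes and mast cells, -0.30 for developmental sarcomere, 0.08 for the respiratory chain and 0.15 for ribosomal proteins. Without slide 3 they were -0.21 for synovium and -0.32 for adipocytes.

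In the group comparisons, counts past the limma adjusted threshold became 1 in TR minus SED in the authors' table, with and without Tnmd as a term, and 2 under normexp without it. With array weights they were 15 (DETR minus SED), 107 (TR minus SED) and 2 (TR minus DETR), and 11 and 3 in the last 2 with Tnmd as a term. Same-numbered arrays of different groups had correlations of -0.38 to 0.27 after group and slide were fitted. These cannot show whether the numbers pair rats, and the labels do not say. With the replicate block 4 features passed in TR minus SED, 35 in TR minus DETR and 38 in the latter with Tnmd. TR minus DETR, where the values of the 4 tendon markers lay within their SE, changed sign for Kera (-0.41 under quantile normalization and in the authors' table, -0.37 with the replicate block, -0.61 with array weights), Tnmd (0.10 under normexp, 0.22 with no slide term), Comp (0.28) and Fmod (0.09), both with no slide term. The cause of these changes was not tested. Faint signal limits Tnmd and Kera in the Tnmd-low set, where each was well above background on 2 of 8 arrays.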
